A study of Homo sapiens with 5 samples.

Results

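In HT1376 bladder carcinoma cells, 4104 of 21641 merged H3K27me3 domains (19.0%, exact 95% interval 18.4 to 19.5%) carried EZH2 and came through treatment with the EZH2 inhibitor CPI-0209 as a single, usually shorter, piece. H3K27me3, trimethylated lysine of the histone H3 tail, marks repressed chromatin, and a domain here is an interval called in the DMSO library after overlapping rows of the deposited list were merged. The members were chosen by their H3K27me3 calls in both treatments and by EZH2 calls in DMSO: a domain was a member if it was narrower than 60 kb, overlapped an EZH2 domain of the DMSO library by at least 1 bp, and overlapped exactly 1 merged H3K27me3 domain of the CPI-0209 library. The overlapped length is called kept and the rest lost. Of the 7441 EZH2-bound domains under 60 kb, the members made up 55.2%, another 2253 (30.3%) were broken into 2 or more pieces, and 1084 (14.6%) had no H3K27me3 call left. Over all 21641 H3K27me3 domains, 27% overlapped exactly 1 CPI-0209 domain and 41.1% overlapped at least 1, and since that overlap chose the members nothing is read from their count.

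The study used a single established human cell line, HT1376, given either the vehicle DMSO or CPI-0209 at 250 nM for 8 days. Chromatin immunoprecipitation and sequencing with antibodies against EZH2 or H3K27me3 gave 4 libraries, 1 for each combination of antibody and treatment. The extraction text also mentions treatment for 4 days and an antibody against acetylated H3K27, which are not analysed here, and 1 input sample was not used here. With 1 library per group there was no replicate and no test between treatments, so all values below describe these 4 libraries. Intervals given for shares of domains or genes are exact (Clopper-Pearson), cover counting error only, and treat neighbouring domains as separate although they share a library.

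Polycomb repressive complex 2 methylates lysine 27 of histone H3 with its catalytic subunit EZH2 and, through another subunit, EED, also binds the finished mark. In mammalian cells the complex concentrates at CpG-rich promoters of developmental genes that are switched off, and the mark spreads from there into the flanking chromatin. CPI-0209 blocks the methyltransferase activity of EZH2.

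The promoters below are examples of gene starts in kept and in lost length, picked by the width of their member. They are RefSeq sequences of the GRCh38.p14 build from 250 bases before to 50 bases after an annotated start, written 5′ to 3′ on the strand of the gene, with each CG dinucleotide in capitals. The first 3 belong to the widest members with a protein-coding start. The GALNT9 sequence (chr12:132205979-132206278, minus strand) holds 15 CG dinucleotides, the NRG2 sequence (chr5:140043250-140043549, minus strand) holds 25, and the LOC124904950 sequence (chr20:63242411-63242710, plus strand) holds 4. All 3 starts lay in kept pieces, and all 3 windows held fewer CG dinucleotides than the median of 26 at starts in kept length.
GALNT9: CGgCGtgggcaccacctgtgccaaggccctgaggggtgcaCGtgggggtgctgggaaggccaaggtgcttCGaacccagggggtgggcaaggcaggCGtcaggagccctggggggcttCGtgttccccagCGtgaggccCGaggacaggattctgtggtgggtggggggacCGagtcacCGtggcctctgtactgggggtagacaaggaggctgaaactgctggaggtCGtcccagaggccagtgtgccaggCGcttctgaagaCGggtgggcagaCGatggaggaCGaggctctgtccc
NRG2: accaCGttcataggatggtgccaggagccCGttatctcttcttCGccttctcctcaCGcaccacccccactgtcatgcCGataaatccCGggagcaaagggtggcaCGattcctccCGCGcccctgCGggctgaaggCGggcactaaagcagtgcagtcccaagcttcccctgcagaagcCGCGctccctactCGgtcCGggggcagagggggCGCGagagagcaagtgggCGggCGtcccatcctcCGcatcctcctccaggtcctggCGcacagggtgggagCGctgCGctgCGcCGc
LOC124904950: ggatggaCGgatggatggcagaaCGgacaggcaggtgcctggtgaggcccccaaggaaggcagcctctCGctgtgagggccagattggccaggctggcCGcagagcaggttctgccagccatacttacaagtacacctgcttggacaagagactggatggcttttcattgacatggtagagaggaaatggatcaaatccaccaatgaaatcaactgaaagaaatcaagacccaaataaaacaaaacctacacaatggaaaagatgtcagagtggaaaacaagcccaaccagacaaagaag

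Both pairs below come from the widest members with 1 protein-coding start in the kept piece and another in the lost length. In a member of 26.4 kb with a kept piece of 6.0 kb, the kept start was that of BOC (chr3:113211307-113211606, plus strand), a cell surface co-receptor of hedgehog ligands, and the start of LOC124909486 (chr3:113215581-113215880, minus strand) lay 1.43 kb outside the piece. In a member of 25.2 kb with a kept piece of 7.8 kb, the kept start was that of LOC128966684 (chr17:36182360-36182659, plus strand), and that of CCL3L3 (chr17:36196709-36197008, minus strand) lay 8.56 kb outside. CCL3L3, a chemokine gene, belongs to a family of near-identical copies, so calls there are uncertain. The BOC window held 9 CG dinucleotides against 1 for LOC124909486, and the LOC128966684 window held 13 against 2 for CCL3L3. Both kept windows of these pairs also lay below the median of 26 at starts in kept length.
BOC: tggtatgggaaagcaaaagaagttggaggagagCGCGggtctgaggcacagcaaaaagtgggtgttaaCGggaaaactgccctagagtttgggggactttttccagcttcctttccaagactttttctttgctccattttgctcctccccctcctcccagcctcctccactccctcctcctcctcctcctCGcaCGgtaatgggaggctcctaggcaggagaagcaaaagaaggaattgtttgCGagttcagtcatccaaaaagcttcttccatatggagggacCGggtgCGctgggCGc
LOC124909486: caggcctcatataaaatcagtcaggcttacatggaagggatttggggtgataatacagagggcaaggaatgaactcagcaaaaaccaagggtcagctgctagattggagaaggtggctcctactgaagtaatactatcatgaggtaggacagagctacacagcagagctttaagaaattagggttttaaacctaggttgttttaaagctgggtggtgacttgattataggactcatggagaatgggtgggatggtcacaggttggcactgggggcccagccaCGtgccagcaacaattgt
LOC128966684: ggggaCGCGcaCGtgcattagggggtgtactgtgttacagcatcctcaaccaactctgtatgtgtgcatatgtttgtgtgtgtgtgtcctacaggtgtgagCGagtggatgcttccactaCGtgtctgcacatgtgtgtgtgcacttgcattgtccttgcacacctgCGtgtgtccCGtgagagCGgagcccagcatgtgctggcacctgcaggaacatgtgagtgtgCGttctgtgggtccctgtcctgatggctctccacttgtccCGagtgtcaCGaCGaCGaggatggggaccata
CCL3L3: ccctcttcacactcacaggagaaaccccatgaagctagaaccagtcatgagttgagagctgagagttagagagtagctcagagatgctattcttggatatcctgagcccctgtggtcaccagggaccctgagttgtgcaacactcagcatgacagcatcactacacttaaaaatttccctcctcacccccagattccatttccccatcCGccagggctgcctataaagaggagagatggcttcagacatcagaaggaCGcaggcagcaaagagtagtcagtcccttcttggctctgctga

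Kept pieces also held 59 of the 1558 miRNA hairpins of the RefSeq table on the chromosomes of these lists, and the lost length held 35. A pair of mature miRNAs from different members shared a seed, the bases 2 to 8 that pair with target RNAs, shown in capitals below; this pair was chosen after the values were seen. The hairpin of MIR148A lay in a member of 9.6 kb on chromosome 7 whose kept piece was 3.2 kb, with 4.8 kb under EZH2 in DMSO and 5.4 kb in CPI-0209. The hairpin of MIR152 lay in a member of 14.6 kb on chromosome 17 whose kept piece was 11.2 kb, with 13.4 kb and 9.0 kb under EZH2.
hsa-miR-148a-3p: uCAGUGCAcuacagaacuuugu
hsa-miR-152-3p: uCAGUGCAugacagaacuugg

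The members were mid-sized domains that mostly shrank from both sides. Their DMSO width had a median of 12.1 kb (quartiles 7.6 and 18.4 kb, range 0.4 to 59.0 kb), and the kept length had a median of 4.2 kb (quartiles 2.8 and 7.0 kb). The median member kept 41.2% of its length (quartiles 26.2 and 60.6%). Summed over members, 24.5 of 58.1 Mb were kept (42.1%) and 33.6 Mb were lost. These values belong to the contrast that chose the members and are a description only.

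**Figure D1:**
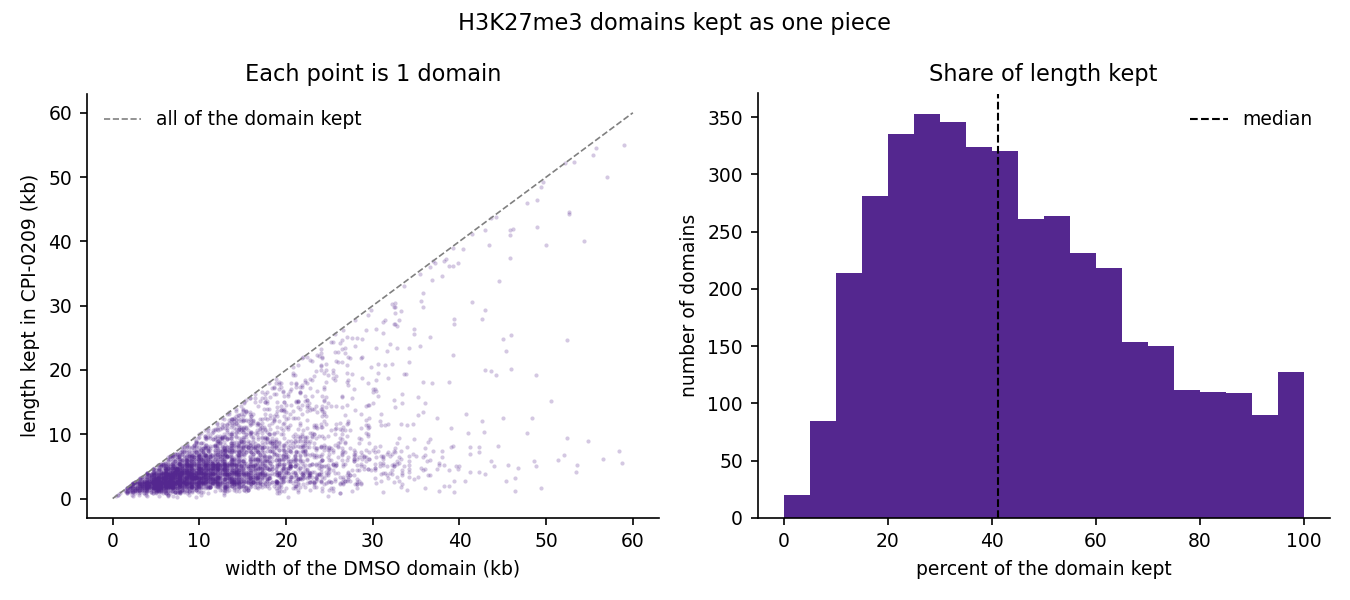
Left, each point is 1 of the 4104 members, with its DMSO width (kb, x axis) and the length kept in CPI-0209 (kb, y axis); the dashed line marks domains kept whole. Right, number of members by percent of length kept, with the median of 41.2% dashed; most points lie well under the line, and a small group reaches 90% or more.

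Loss was seen at both edges in 3492 members (85.1%, 84.0 to 86.2%), at 1 edge in 549 (13.4%) and at neither in 63 (1.54%). At least 90% of the domain was kept in 217 members and less than 10% in 105. The CPI-0209 domain reached beyond the DMSO domain in 328 members (7.99%), and 36 members shared their CPI-0209 domain with another member. The 3 members just inside the width limit, at 58.4, 58.8 and 59.0 kb, kept 12.7, 9.52 and 93.2% of their length. The 3 domains just outside that met the other terms of the rule, at 61.0, 61.0 and 62.0 kb, kept 66.6, 99 and 24.2%, and 18 domains in all were excluded by width alone. Over the genome the H3K27me3 lists covered 315.1 Mb with DMSO and 113.8 Mb with CPI-0209. Whether a shorter call reflects fewer cells with the mark or less mark per cell cannot be told apart in these bulk samples. A difference between the libraries in depth, which is unknown, or in calling cannot be told apart from either.

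Each deposited list turned out to be 2 sorted runs of intervals, one after the other and without names, which were merged together for the values above. The first run of the H3K27me3 CPI-0209 list covered 113.4 Mb and touched 4096 members, while the second covered 15.1 Mb and touched 539, of which 531 were in both. Members in the second run were wider (median 17.2 against 11.2 kb for the rest) and kept more of their length (63.3 against 39.0%). Both runs of the H3K27me3 DMSO list covered 94.4% of the kept length but 52.0% of the lost length, so the kept pieces lay largely inside what both DMSO runs called. With the first DMSO run alone the median share kept rose to 66.2% and loss at both edges fell to 52.0% of members, and with the second CPI-0209 run alone the median share was 14.5%.

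EZH2 remained over nearly all members after treatment. An EZH2 CPI-0209 call, from the 1 library the rule did not use, touched 4025 members (98.1%, 97.6 to 98.5%). Of the other EZH2-bound domains under 60 kb it touched 99.9% of the broken and 74.1% of the lost ones, so the high share was not particular to the members. It touched 87.5% of all merged EZH2 DMSO domains and 53.1% of all H3K27me3 DMSO domains, which were not chosen for EZH2. Inside the members the EZH2 cover was 36.4 Mb with DMSO and 36.5 Mb with CPI-0209. The ratio of CPI-0209 to DMSO cover was 1.00 in the members and 1.17 over the genome, with both runs of each EZH2 list together. That equality did not hold with the runs paired by their order in the lists. The runs have no names, so this pairing is an assumption. The first runs covered 6.29 Mb of the members with DMSO and 27.7 Mb with CPI-0209, and the second runs 36.1 and 31.9 Mb. Over the genome the first runs covered 67.9 and 136.5 Mb and the second 160.0 and 204.7 Mb. The shared length of 30.5 Mb was 84.0% of the DMSO cover and 83.6% of the CPI-0209 cover in the members. Over all EZH2 domains the shared length was 78.2% of the DMSO cover and 66.8% of the CPI-0209 cover. The rule required an EZH2 DMSO call in each member, while the genome figures also hold CPI-0209 domains away from any DMSO call. The rule thus set in part how the cover ratio and the shared length of the members compare with the genome, and nothing is read from those differences.

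Member by member, with both runs together, the EZH2 cover moved in both directions. It was wider in CPI-0209 in 1706 members, narrower in 1974 and equal in 424. Exactly 1 EZH2 domain was met by 3873 members in DMSO and by 3407 in CPI-0209, and exactly 2 were met by 217 and 530. The rule required at least 1 in DMSO, and 79 members met none in CPI-0209. The merged EZH2 list was also longer with CPI-0209 over the genome, at 27406 domains against 18639, so the rise in members with 2 is not read as particular to them. Of the 79 members that no EZH2 CPI-0209 call touched, none of the 76 on chromosomes with promoter entries had a protein-coding start in the kept piece, which allows a share of up to 4.74%, against 30.8% of the members with such a call.

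EZH2 covered more of the kept than of the lost length. In DMSO its calls, with both runs together, covered 93.0% of the kept and 40.3% of the lost length, and in CPI-0209 they covered 93.6% and 40.4%. The first EZH2 DMSO run alone covered 21.5 and 3.05%, and the second 92.6 and 39.7%. With CPI-0209 the first run covered 79.8 and 24.1% and the second 88.7 and 30.3%. These shares are not given here for the broken domains, so the contrast is not called particular to the members. Of 4041 members with some lost length, 3392 had the larger EZH2 share over the kept length in DMSO and 3431 (84.9%, 83.8 to 86.0%) in CPI-0209, against 209 and 134 with the smaller. The kept piece lay wholly under EZH2 CPI-0209 in 2928 members (71.3%). Of the EZH2 DMSO cover in kept length 95.4% was called again in CPI-0209, against 64.9% in lost length.

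The contrast between kept and lost length held in every width class, from members under 5 kb (95.3 against 55.7% under EZH2 CPI-0209) to those of 20 to 60 kb (95.5 against 39.2%). It was also seen in members without any protein-coding start, at 92.3 against 40.9%. By chromosome the CPI-0209 cover of kept length ranged from 86.9% on chromosome 19 to 96.6% on chromosome 5. The difference between kept and lost length in EZH2 DMSO cover was 52.6 percentage points, fell to 28.4 points with the second H3K27me3 CPI-0209 run alone and to 32.0 with the first DMSO run alone, and was 12.0 points where only stretches under both H3K27me3 runs were used.

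**Figure D2:**
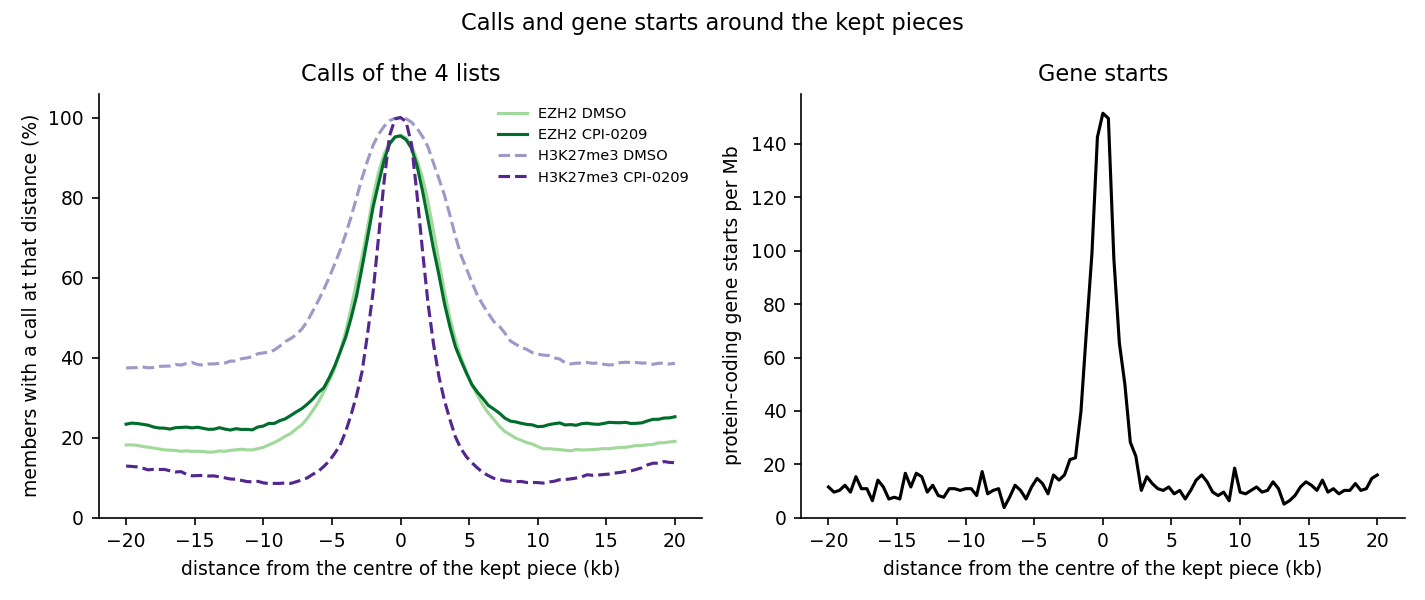
Left, percent of the 4104 members with a call in each of the 4 lists by distance (kb) from the centre of the kept piece; H3K27me3 lists are dashed and are part of the rule. Right, protein-coding starts per Mb by the same distance over the members on chromosomes with promoter entries; starts peak at 151 per Mb at the centre, and both EZH2 curves fall together on either side.

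At the centre of the kept piece 95.6% of members were under EZH2 in DMSO and 95.4% in CPI-0209, and at 10 kb toward higher coordinates the shares were 17.8 and 22.8%. The curves of both treatments thus ran together near the centre, and at 10 kb the CPI-0209 list held more calls, as it did over the genome.

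Gene starts lay in what was kept. On the 22 chromosomes with promoter entries, 3895 members held 1812 protein-coding starts, and 1560 of them (86.1%, 84.4 to 87.7%) lay in kept pieces, which made up 42.2% of the members' length. The density was 66.6 starts per Mb in kept and 7.87 in lost length, a ratio of 8.47 (7.41 to 9.72), beside 15.3 per Mb over all H3K27me3 DMSO domains. Counted by both ends of the gene records, which needs no promoter entry, the densities were 74.4 and 18.1 per Mb, a ratio of 4.12. With the second H3K27me3 CPI-0209 run alone the ratio of starts was 5.12, and with stretches under both H3K27me3 runs it was 4.15. In the broken EZH2-bound domains under 60 kb starts were also denser in kept length, at 23.5 against 5.25 per Mb in lost length.

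A protein-coding start lay in the kept piece of 1176 members (30.2%), in the lost length only of 151, and in both of 66, which are among the 1176. The other 2568 members (65.9%) held none, and over all H3K27me3 DMSO domains 16% held such a start. Of those 2568, the kept piece held the start of a long non-coding RNA in 226 and touched a protein-coding gene record in 1145. Members with a start in the kept piece had a median width of 10.6 kb and kept 43.6%, and those without a start had 12.8 kb and 40.8%.

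In the 858 members with a single protein-coding start, lying in the kept piece, that piece reached a median of 1.51 kb upstream and 2.33 kb downstream of the start, where the DMSO domain had reached 4.30 and 5.26 kb. The downstream arm was the longer in 585 of them (68.2%, 64.9 to 71.3%). The start lay a median of 0.654 kb from the centre of the kept piece, a distance bounded by the choice of members whose start lies in it.

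The promoters of both sets differed in composition, as the printed pairs did. The 300-base windows held a median of 26 CG dinucleotides at starts in kept length, 7 at starts in lost length and 21 at all 22131 protein-coding starts of the table. Their GC content was 67.7, 53.8 and 62.3%. At least 15 CG dinucleotides were found in 76.5% of windows in kept and 29.0% in lost length, beside 62.3% of all. In the 66 members with starts in both, the medians were 24.5 in kept and 6 in lost length. The contrast was not particular to the members: in the broken EZH2-bound domains under 60 kb the medians were 19 in kept and 8 in lost length.

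The letters GGGCGG on either strand, which the factor SP1 is known to bind, were found in 69.7% of kept and 36.9% of lost windows and in 56.3% of all. The letters TATAAA on either strand were found in 7.82, 9.13 and 9.46%. In the windows printed above, such matches are letters only and show no binding.

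**Figure D3:**
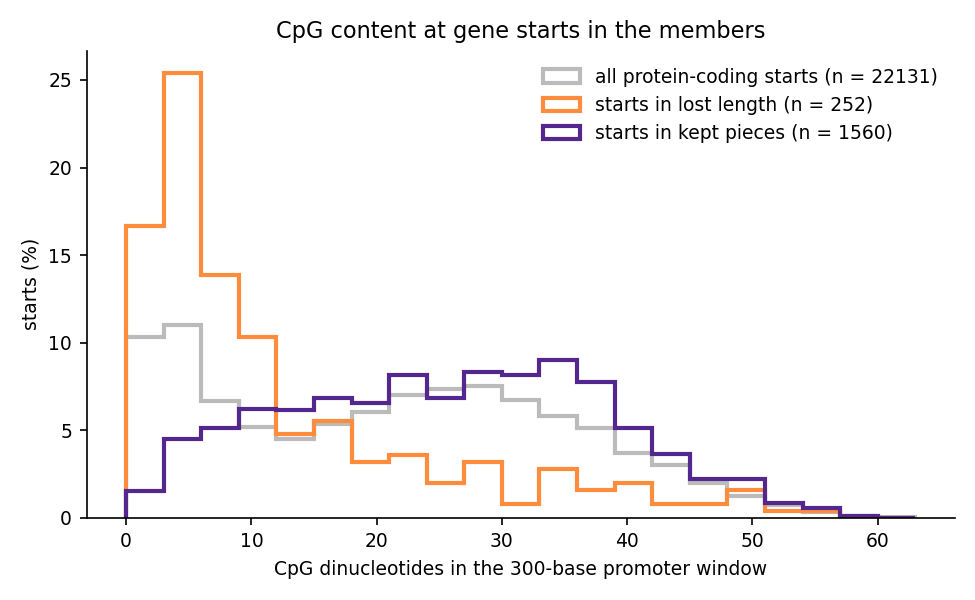
Percent of protein-coding starts (y axis) by number of CG dinucleotides in the 300-base promoter window (x axis), for the 1560 starts in kept pieces, the 252 in lost length and all 22131 of the table. Starts in lost length pile up at low values, with a median of 7, and those in kept pieces spread around 26.

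The members were set beside the other EZH2-bound domains under 60 kb. A protein-coding start was held by 34.1% of members (32.6 to 35.6%), 32.6% of broken domains (30.6 to 34.6%) and 15% of lost domains (12.8 to 17.3%). An EZH2 CPI-0209 call touched 98.1, 99.9 and 74.1% of them. Broken domains were wider, with a median of 30.6 kb, and lost ones narrower, with 8.8 kb.

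Within the wider classes the share with a start was again lower in lost domains. At 10 to 20 kb a start was held by 28.6% of members, 28.1% of broken and 11.2% of lost domains. At 20 to 60 kb the shares were 33.0, 33.6 and 13.0%. The intervals of members and broken domains overlapped in both classes, and the sign of their difference changed with the class. Per Mb of kept length, starts were denser in members than in broken domains in both, at 55.2 against 36.1 and at 33.6 against 22. Broken domains were wider in both classes, with medians of 16.4 against 13.9 kb and 34.1 against 25.6 kb, and kept more of their length. At 10 to 20 kb, 1591 members held 522 kept starts and 377 broken domains held 120. At 20 to 60 kb, 818 members held 306 and 1767 broken domains held 765. The densities therefore do not show more kept starts per domain in members.

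**Figure D4:**
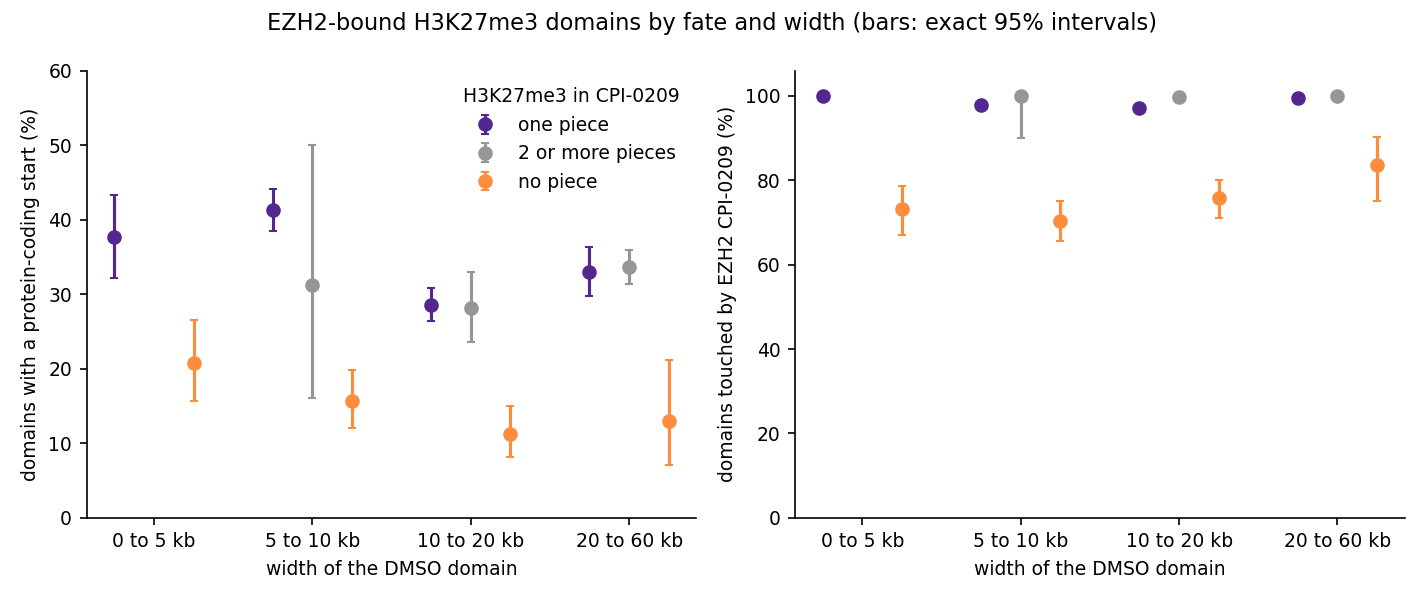
Percent of EZH2-bound domains holding a protein-coding start (left) or touched by EZH2 CPI-0209 (right) by DMSO width class, for domains kept in a single piece, broken into 2 or more, or lost; bars are exact 95% intervals. The lost domains lie below the members in each class, and the class of broken domains under 5 kb, with 2 domains, is not drawn.

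Of the 8 widest members with a protein-coding start, 6 kept 73.5 to 100% of their length and the others 16.4% or less. GALNT9, an enzyme that begins mucin-type O-glycosylation, had an annotated start inside its gene record (chr12:132196372-132329589), in a member of 57.0 kb of which 50 kb were kept. EZH2 covered 54.2 kb there in DMSO and 56.0 kb in CPI-0209. The member at LOC124904950 also held the start of BIRC7, an inhibitor of apoptosis, and kept 53.4 of 55.4 kb, with EZH2 over all 55.4 kb in both treatments. PABPN1L, a relative of the nuclear poly(A)-binding protein PABPN1, lay in a member of 52.2 kb that kept its whole length and was covered by EZH2 throughout.

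TBX1, a T-box factor of pharyngeal and heart development, lay in a member of 52.6 kb (chr22:19732001-19784600) that kept 44.2 kb, with EZH2 over 44.8 kb with DMSO and 49.6 kb with CPI-0209. PRSS57, a neutrophil serine protease, lay in a member of the same width that kept 44.6 kb, and its EZH2 cover was 46.2 and 52.6 kb. SMARCD3, a subunit of the BAF chromatin remodelling complex, kept 40.0 of 54.4 kb, with EZH2 over 42.6 and 44.2 kb. All 3 had the wider EZH2 cover in CPI-0209.

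The other two of the 8 widest were cut back to a short stretch around the start. NRG2, a neuregulin that binds ERBB receptors, lay in a member of 56.6 kb (chr5:140013201-140069800) that kept 6.2 kb, with EZH2 over 14.8 kb in DMSO against 12.2 kb in CPI-0209. DIPK1A kept 9.0 of 54.8 kb, and EZH2 covered 22.4 kb with DMSO and 13.6 kb with CPI-0209. In DMSO, EZH2 covered 26.1 and 40.9% of the length of these H3K27me3 domains, against 78.3% or more in the other 6. Whether that cover is related to the length kept was not tested.

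**Figure D5:**
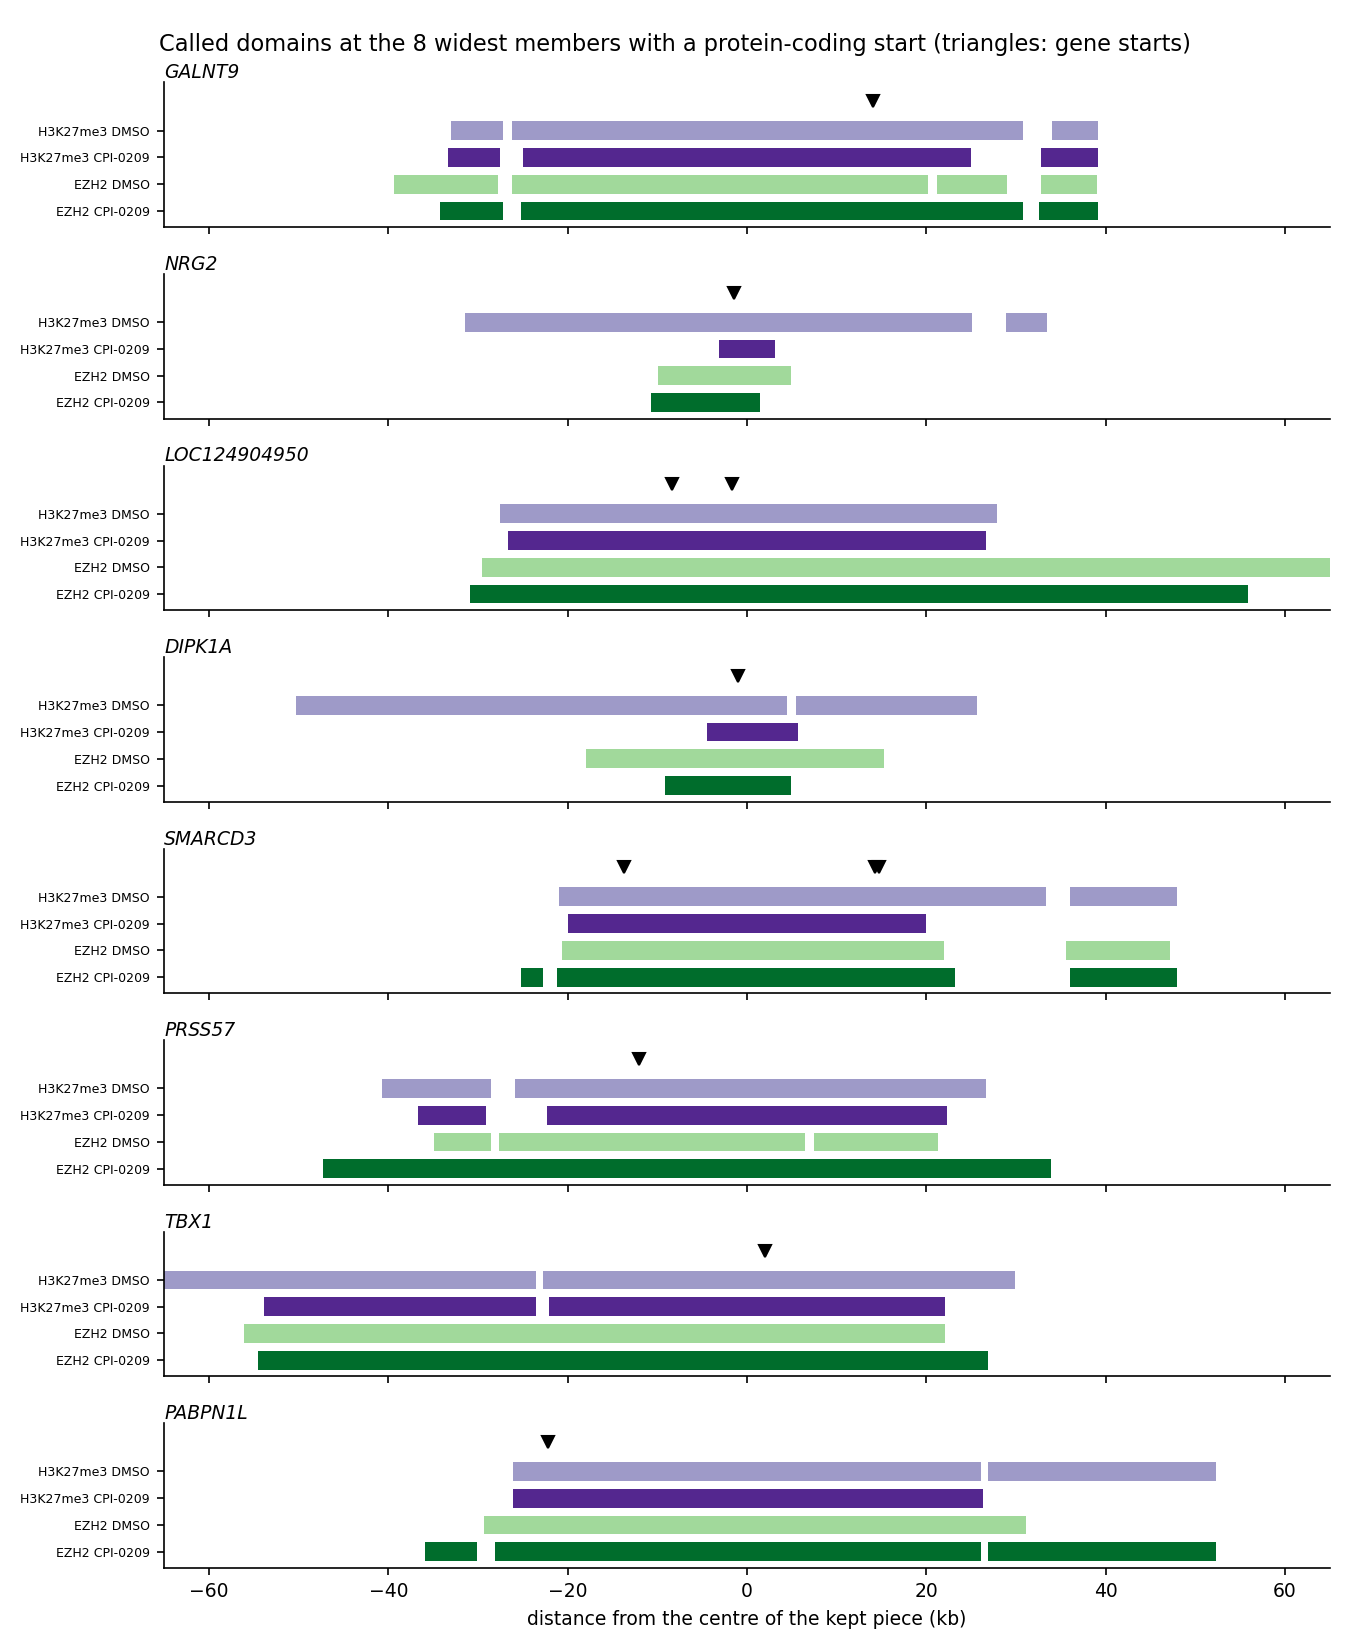
Called intervals of the 4 lists around the 8 widest members with a protein-coding start, by distance (kb) from the centre of the kept piece; triangles mark protein-coding starts in the member, neighbouring domains are drawn too, and bars that reach the frame go on beyond it. At NRG2 and DIPK1A the dark H3K27me3 bar of CPI-0209 overlaps 6.2 and 9.0 kb of a DMSO bar of more than 50 kb, and at DIPK1A it runs past the end of that bar; the other 6 keep most of their length.

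Among members of 10 kb or more with a start, those with the highest share kept were all under EZH2 along nearly their full length. IDUA, a lysosomal enzyme, lay in a member of 18.0 kb kept whole, with EZH2 over 16.8 kb in DMSO against 18.0 kb in CPI-0209. LOC105370092 (43.6 kb), RASA3 (13.4 kb), a GTPase-activating protein of the Ras family, and PRR35 (12.6 kb) were kept whole and were wholly under EZH2 in both treatments. PERCC1 (15.4 kb) was kept whole with EZH2 over 15.4 and 14.6 kb, and NPBWR2 (21.8 kb), a neuropeptide receptor, with 21.6 and 21.8 kb. TEX29 kept 27.8 of 28.0 kb under full EZH2 cover in both lists. PERCC1 was the only 1 of these 8, counting PABPN1L, that the second H3K27me3 CPI-0209 run did not touch.

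At the other end the kept piece was 0.8 to 2.0 kb long and often missed the start. LACTBL1 lay in a member of 26.2 kb that kept 0.8 kb, and EZH2 covered 2.2 kb with DMSO and 7.8 kb with CPI-0209. SUGCT, an enzyme of glutarate metabolism, kept 1.6 of 49.4 kb, with 13.2 and 8.6 kb under EZH2. The start lay outside the piece at both genes and at ARMH4, TIAM2 and TRPM8, and inside it at TMEM169 and CR1L. At ARMH4 the start, at base 58152213, was nearer to the end of the piece, at 58152200, than the 200 bp step of the lists.

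EZH2 cover differed in direction among these members. It went from 7.0 kb with DMSO to 1.8 kb with CPI-0209 at TMEM169, and from 12.2 to 1.8 kb at CR1L, a complement receptor-like gene. At TIAM2, an exchange factor for Rac, it went from 10.8 to 17.0 kb, and at TRPM8, the cold-sensing channel, from 12.4 to 15.2 kb. ARMH4 had 4.0 and 4.8 kb. None of these 8 members with the lowest share kept was touched by the second H3K27me3 CPI-0209 run.

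NAT8L, the enzyme that makes N-acetylaspartate, completed the 6 members with the longest EZH2 CPI-0209 cover and a start. It kept 46.4 of 49.0 kb, with EZH2 over 48.2 kb in DMSO against 47.0 kb in CPI-0209. Of 725 members of 10 kb or more with a start, 1, at the kinesin gene KIF4B, had no EZH2 CPI-0209 call. Its member of 11.4 kb kept 2.2 kb outside the start, and EZH2 had covered 6.2 kb in DMSO. Including it, 52 members of that width had no EZH2 CPI-0209 call.

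Listed developmental genes were placed next. Over all 19970 protein-coding genes, 1269 (6.35%) had a start in a kept piece and 172 (0.861%) had one in lost length only. Their members had a median width of 11.4 kb, a median of 45.0% kept and 70.6% of the length under EZH2 CPI-0209. Genes absent from the promoter table were placed by both ends of their record, and those whose ends fell in different places were not counted as kept. The lists were chosen with earlier results of these data known, and Polycomb domains are known to gather at developmental genes, so their counts are a description.

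Kept starts were counted by transcription factor family, and the intervals of the families, HOX aside, overlapped. Of 97 homeobox genes outside the HOX clusters, 21 (21.6%, 13.9 to 31.2%) had a kept start, none had a start in lost length only, 34 lay in broken domains and 10 had no H3K27me3 call. Of the homeobox genes placed in any H3K27me3 DMSO domain, 28.4% had a kept start, beside 32.3% of all protein-coding genes so placed. In the SOX, bHLH, ligand, channel, receptor, and cadherin and matrix lists described below, that share was between 31.6 and 45.8%. The median member of these 21 was 19.6 kb wide and kept 72.5%. BARHL2, a factor of neuronal subtypes, kept 28.0 of 39.4 kb, with EZH2 over 37.6 kb with DMSO and 28.8 kb with CPI-0209. GBX2, of the midbrain and hindbrain boundary, kept 18.4 of 23 kb with 20.4 and 21.2 kb. DBX1, of spinal cord interneurons, kept 12.6 of 21.0 kb with 16.2 and 15.4 kb, and GSC, of the gastrula organizer, kept 9.4 of 23.4 kb with 15.2 kb in both. The second H3K27me3 CPI-0209 run touched 15 of the 21 (71.4%), against 268 of the 1269 genes at large (21.1%). HMX2 and HMX3 share 1 member and are counted separately. Members of these homeobox genes were wider than those of genes at large (median 19.6 against 11.4 kb), as were members in the second run, and width was not separated from family.

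The 39 HOX genes had no start in a kept piece. Of them, 33 lay in 5 domains of 66.2 to 188.6 kb, wider than the rule admits, and 6 lay in broken domains. The width limit excluded those 33 in advance and the genes share domains, so no share is read from them.

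Of 17 SOX genes, 4 had a kept start and 1 a start in lost length. SOX14, SOX18 and SOX21 lay in members of 19.0, 25.2 and 18.6 kb and kept 14.2, 24.4 and 16.2 kb. SOX18, a factor of vessel development, was under EZH2 over its full 25.2 kb in both treatments, and SOX21, a neural factor, over 18.6 kb in DMSO against 16.4 kb in CPI-0209. SOX30, of spermatid development, kept 2.4 of 15.8 kb with 4.4 and 5.6 kb under EZH2. SOX5 had its start in the lost length of a member of 5.6 kb that kept 1.4 kb.

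Of 25 forkhead genes, FOXD2 and FOXQ1 had a kept start (8.00%, 0.984 to 26.0%), keeping 14.6 of 27 kb and 6.6 of 11.2 kb, while 10 lay in broken domains. Of 22 T-box and GATA genes, 4 did (18.2%, 5.19 to 40.3%). Of the genes placed in any H3K27me3 domain these were 11.8 and 25%, and both intervals include the 6.35% of genes at large. TBX10 kept 9.6 of 12.8 kb, and TBXT, the notochord factor brachyury, kept 4.2 of 15.6 kb with EZH2 over 9.8 kb with DMSO and 13.8 kb with CPI-0209. GATA6, of endoderm and heart, kept 8.0 of 30.2 kb with 11 and 8.6 kb. TBX1 is described above.

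Of 41 neurogenic and myogenic bHLH genes, 11 had a kept start (26.8%, 14.2 to 42.9%), in members of a median 15.8 kb that kept 56.3%. ATOH1, of hair cells and cerebellar granule neurons, kept 3.6 of 11.8 kb under EZH2 calls of 11.2 kb in both treatments. HAND1, of heart and placenta, kept 17.0 of 30.2 kb with EZH2 over 22.8 kb in DMSO against 18.4 kb in CPI-0209. ATOH8 kept 8.0 of 22 kb with 10.8 and 8.8 kb, and FERD3L kept 2.6 of 5.2 kb with 5.2 and 4.4 kb. At these 4 genes the H3K27me3 piece was shorter than the EZH2 cover of the member. That was not particular to them: over all members the median kept length was 4.2 kb, and the median EZH2 cover was 7.0 kb with DMSO and 6.8 kb with CPI-0209.

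Signalling and membrane protein genes were placed in the same way. Of 61 WNT, BMP, GDF, FGF and hedgehog ligand genes, 12 had a kept start (19.7%, 10.6 to 31.8%), in members of a median 11.1 kb that kept 42.1%. BMP6 kept 6.2 of 27.8 kb with EZH2 over 13.2 kb with DMSO and 11.2 kb with CPI-0209. DHH, the hedgehog ligand of Schwann and Sertoli cells, kept 6.8 of 10.6 kb with 9.4 and 9.6 kb. FGF10, of limb and lung buds, kept 2.4 of 8.4 kb with 4.0 and 5.0 kb, and FGF12 kept 4.2 of 8.6 kb with 5.8 and 7.2 kb. GDF1 had its start in the lost length of a member of 16.0 kb.

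Of 40 voltage-gated potassium channel genes, 10 had a kept start (25%), and KCNC2 had one in lost length. KCNA2 kept 7.6 of 13.8 kb with EZH2 over 8.2 kb in DMSO against 12.2 kb in CPI-0209. KCNA4 kept 1.4 of 3.6 kb, KCNA5 kept 3.8 of 12.8 kb and KCNA7 kept 3.0 of 6.6 kb. Of 40 monoamine, muscarinic, opioid and somatostatin receptor genes, 11 did (27.5%), in members of a median 8.2 kb. CHRM4, a muscarinic receptor, kept 13.2 of 13.4 kb under full EZH2 cover in both treatments, and ADRA2A, an adrenergic receptor, kept 2.4 of 4.8 kb, also under full cover. ADRA1B kept 5.4 of 25.4 kb with 13.6 and 18.4 kb, and DRD2, a dopamine receptor, kept 6.4 of 26.0 kb with 23.2 and 18.2 kb. HTR7 and SSTR1 had their starts in lost length.

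Of 46 cadherin and matrix genes, 8 had a kept start (17.4%). COL18A1, which encodes the precursor of endostatin, kept 35.0 of 35.4 kb, and EZH2 covered 25 kb with DMSO and 34.6 kb with CPI-0209. CDH23, of the hair cell tip link, kept 11.6 of 25.8 kb with 21.0 and 19.6 kb, COL11A2 kept 5.6 of 10.2 kb and CDH20 kept 2.4 of 6.8 kb. Among 26 cell cycle inhibitor and tumour suppressor genes 3 had a kept start (11.5%, 2.45 to 30.2%), and that interval includes the 6.35% of genes at large. DAB2IP kept 13.2 of 40.8 kb, and its EZH2 cover was 15.6 kb in DMSO against 38.2 kb in CPI-0209. SLIT2, an axon guidance ligand, kept 3.6 of 4.2 kb, and WIF1, a secreted WNT inhibitor, kept 1.6 of 7.4 kb.

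The lists for the labelled cell type and for general upkeep held few or no kept starts, but the interval of each includes the 6.35% of genes at large. None of 25 urothelial luminal genes had a kept start, which allows up to 13.7%, and 18 had no H3K27me3 DMSO call, UPK2, PPARG and KRT20 among them, while the luminal regulator FOXA1 had a start in a broken domain, as had GATA3 for 2 of its 6 annotated starts. Of 25 basal and squamous genes, LORICRIN alone did (upper limit 20.4%), keeping 4.6 of 10.0 kb, and 18 had no call. None of the 14 genes of PRC2 and the H3K27 demethylases and none of the 35 housekeeping genes had an H3K27me3 call, and the upper limits for kept starts are 23.2 and 10.0%. Of 34 genes of antigen presentation and interferon response, HLA-DPA1 had a kept start (2.6 of 14.8 kb) and HLA-B and HLA-DQB1 had theirs in lost length, at a locus of similar and variable genes where calls are uncertain. Of 8 blood markers, IKZF1 had a kept start, in a member that kept 4.4 of 9.0 kb. The lists hold calls of a repressive mark and not RNA, so they do not show which genes were expressed.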

How the data were processed

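ChIP-seq for EZH2 and H3K27me3 in HT1376 cells gave 4 interval lists, 1 per library. The authors deposited intervals by position only (chromosome, start, end), with no score, count or depth, per the file headers. All starts and widths were multiples of 200 bp. The submitters' processing notes name BWA, SICER and hg38. The peak caller's settings and the use of the input are not given in the sources used here.

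Overlapping rows were merged within each list, and touching rows were not. Each list held 2 runs of sorted intervals, which were used together. Lengths, overlaps and shares were computed with Python 3.11.15, numpy 2.4.6, pandas 2.3.3 and scipy 1.17.1, and the code was tested on simulated intervals. Precision cannot be derived from depth, which is unknown, so exact 95% binomial intervals cover counting error only. Gene names, starts, promoters and miRNAs came from RefSeq tables of GRCh38.p14, in which 15811 of 19970 protein-coding genes had a promoter entry, and all 587 listed genes matched a gene record. A gene with several starts counted as kept if any lay in a kept piece.

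The members and gene lists were chosen with earlier results of these data known. Named genes are, by rule, those at the 8 widest members, the 8 with the highest and the 8 with the lowest share kept, the 6 with the longest EZH2 CPI-0209 cover, those of 10 kb or more without it, and the first 4 by alphabet of each list in kept and in lost length. The luminal genes named, the printed miRNAs, and BIRC7 were named outside that rule, and 1 gene the rule names is not reported here. Alternatives tried were other merging, overlap and width limits, single runs of each list, other gene positions and width classes.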

Additional observations from a re-analysis of the deposited data

How the results depend on the processing

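Of 160 values under 22 alternatives, 15 of them planned, 108 stayed within their interval or 1.5 times the value reported, 47 moved and 5 changed sign; the single runs and the merging of touching rows were chosen after seeing the data. The cause of each shift was not tested. No paired analysis was possible because each group had 1 library.
With only stretches under 2 intervals, the rule found 1315 members, a median of 20.8% kept, 12.0 points between kept and lost length in EZH2 DMSO cover (10.1 in CPI-0209), 99.8% touched by EZH2 CPI-0209, a start ratio of 4.15, 94.6% with loss at both edges and 32 listed genes kept (82 as reported).
With the second H3K27me3 CPI-0209 run alone these were 937, 14.5%, 28.4 (24.5), 99.8%, 5.12, 98.2% and 27.
With the first H3K27me3 DMSO run alone there were 6639 members, 66.2% kept, 32.0 (33.1) points, a start ratio of 5.79 and 52.0% with loss at both edges; with the second, 42.3% kept and 81.8%.
With the first EZH2 runs alone, paired by order, there were 1059 members, 47.2% kept, 97.3% touched, 82.1% with loss at both edges and 50 listed genes. With the second runs 97.0% were touched.
Requiring EZH2 over at least 50% of the domain gave 49.2% kept, 98.6% touched, a ratio of 7.12 and 82.0% with loss at both edges. Without domains under 5 kb, 39.4% and 88.1%; with gaps of up to 1 kb joined, 87.4%.
The start ratio was 6.81 over all genes of the table, 9.91 with 2 kb around each start and 4.12 by either record end.
Members minus lost domains, in points of domains with a start, stayed positive (14.1 to 34.0; 34.0 with the first EZH2 runs). Members minus broken, 1.47 as reported, was -2.44 with no upper width, -2.79 under 2 intervals, -2.61 with the second CPI-0209 run, -0.309 with the first DMSO run and -0.609 at 20 to 60 kb, and 0.899 with gaps joined, 3.37 with EZH2 over 50%, 4.26 under 30 kb, 8.40 with the first EZH2 runs, 10.0 at 5 to 10 kb and 0.482 at 10 to 20 kb.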

Other observations

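Many of the miRNA hairpins in the members belonged to a few genomic clusters. A pair of members on chromosome 14, of 15.8 and 18.0 kb, held hairpins of the imprinted cluster at which placental mammals encode a large group of miRNAs. In the first, which kept 8.8 kb, MIR494, MIR543 and MIR495 lay in the kept piece and MIR411, MIR299 and MIR380 in the lost length. In the second, which kept 11.4 kb, MIR487B, MIR539 and MIR655 lay in the kept piece and MIR376C, MIR654 and MIR382 in the lost length. EZH2 CPI-0209 calls covered 10.6 and 17.4 kb of these members. On chromosome X, a member of 8.4 kb held MIR106A, MIR18B and MIR19B2 in its kept 4.6 kb and MIR92A2 and MIR363 outside it. Hairpins of other members included MIR338 and MIR657, in a member of 22.4 kb that kept 22 kb, and MIR126, which lay in the lost length of a member of 36.8 kb that kept 34.0 kb. These hairpins were picked after their positions were seen.

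The share of EZH2-bound domains under 60 kb that were members ranged from 45.5% on chromosome 19 to 64.0% on chromosome X. Chromosome 18 had the lowest kept share of member length, 30.1%, and chromosome 16 the highest, 50.8%. Starts were denser in kept than in lost length on each of the 22 chromosomes with promoter entries.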
